A study of Mus musculus with 16 samples.

Results

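The 10 apolipoprotein genes described here were measured across the 16 mouse liver libraries of the series: Apoa1, Apoa2, Apoa4, Apoa5, Apob, Apoc1, Apoc2, Apoc3, Apoe and Apoh. They were taken from the deposited table by gene symbol, 10 of 18209 named genes, and all 10 passed the filter on low values that left 15781 genes for testing. The study asked how the stress sensor KEAP1 responds in liver when selenoproteins cannot be made, and sequenced rRNA-depleted total liver RNA of mice 20 days old that are labelled male. Each of 4 genotypes had 4 libraries, and all of them carry the floxed Trsp allele, Trsp being the gene of the selenocysteine tRNA. Trspfl/fl livers were the controls. Trspfl/fl::AlbCre livers, called Trsp knockout here, also carry Cre recombinase under the albumin promoter, which deletes Trsp in hepatocytes and leaves it in the other cells of the liver. Keap1C226SC613Shomo::Trspfl/fl livers, called KEAP1 mutant here, are homozygous for a KEAP1 with serine in place of 2 sensor cysteines (C226S and C613S) and have an intact Trsp. Keap1C226SC613Shomo::Trspfl/fl::AlbCre livers, called compound mutant here, combine both.

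Apolipoproteins are the protein coat of the lipoprotein particles that carry triglyceride and cholesterol in blood, and the hepatocyte makes most of them. APOB is the structural protein of the very low density lipoprotein that liver secretes, while APOA1 and APOA2 are the main proteins of high density lipoprotein. The smaller members decide what happens to a particle in plasma: APOC2 activates lipoprotein lipase, APOC3 holds it back, APOA5 promotes triglyceride clearance, and APOE is the ligand through which remnants are taken up again by the liver. APOA4 is made mainly in intestine and in smaller amounts in mouse liver, APOC1 modulates lipid transfer and remnant uptake, and APOH, also called beta-2-glycoprotein I, binds anionic phospholipid.

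No apolipoprotein gene passed the study's thresholds in any comparison by the limma fit used here. At those thresholds this fit called 34 of 15781 genes in Trsp knockout against control and 2 in KEAP1 mutant against control. The paper, with its own test, reports more genes in both comparisons, so the absence of calls is not a result of the paper. Among the members the lowest p-values were those of Apoc2, which was higher with Trsp deletion, and of Apoa2, which was lower in compound mutant livers. Neither passed the adjusted test. Members varied together between livers of 1 genotype, with several pairs past a permutation test. Pairs of other genes were not tested, so this is not shown to be particular to the family. Values below are the deposited ones, log2 of the normalised read count plus 4, where 1 unit is about a doubling. Libraries held 11386716 to 19164094 reads, as recovered from the values, and the least read member, Apoa4, still had from 949 to 7819 reads, so that counting error was small beside the spread between livers. Nothing in the labels beyond the replicate number says that libraries came from separate animals, and p-values measure the spread between these samples. In whole liver RNA, fewer hepatocytes and less RNA per hepatocyte cannot be told apart.

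The 10 genes sit in 5 places of the genome. Apoa1, Apoc3, Apoa4 and Apoa5 are neighbours on chromosome 9, with Apoc3 on the opposite strand, and Apoe, Apoc1 and Apoc2 lie together with Apoc4 on chromosome 7, all on the minus strand. Apoa2 is on chromosome 1, Apoh on chromosome 11 and Apob on chromosome 12. In the GENCODE vM21 annotation (GRCm38), Apoc2 overlaps the gene Gm44805 on the same strand, and Salmon could have split reads between them, so the Apoc2 level is uncertain to that extent. Sequences of 250 bases upstream of the transcription start that RefSeq gives were found in the RefSeq promoter table (build GRCm38.p6) for 8 of the 10 genes, Apoc1 and Apoc3 having no entry. The start used for Apoh lies 51943 bases from the one annotated in GENCODE vM21, and those of the other 7 genes at most 148 bases from theirs. Those of 3 genes are shown because the results turn on these genes: Apoe and Apoa5, which varied together between mice, and Apoa2, which was lowest in compound mutant livers. They are the strand of the gene, 5′ to 3′, ending 1 base before the start, and capitals mark matches to the motifs TATAAA, a core promoter element, and CACGTG, the E-box. The windows are chr7:19699189-19699438 on the minus strand for Apoe, chr9:46268383-46268632 on the plus strand for Apoa5 and chr1:171224804-171225053 on the plus strand for Apoa2.
Apoe: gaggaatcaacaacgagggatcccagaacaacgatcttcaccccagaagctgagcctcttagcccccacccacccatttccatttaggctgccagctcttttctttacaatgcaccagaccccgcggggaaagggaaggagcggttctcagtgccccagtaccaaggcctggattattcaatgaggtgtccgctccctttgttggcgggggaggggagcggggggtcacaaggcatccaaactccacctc
Apoa5: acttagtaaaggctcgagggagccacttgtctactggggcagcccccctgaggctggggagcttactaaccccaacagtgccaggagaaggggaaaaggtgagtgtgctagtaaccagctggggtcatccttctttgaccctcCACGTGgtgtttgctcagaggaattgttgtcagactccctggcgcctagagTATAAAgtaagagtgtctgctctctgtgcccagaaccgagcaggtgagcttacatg
Apoa2: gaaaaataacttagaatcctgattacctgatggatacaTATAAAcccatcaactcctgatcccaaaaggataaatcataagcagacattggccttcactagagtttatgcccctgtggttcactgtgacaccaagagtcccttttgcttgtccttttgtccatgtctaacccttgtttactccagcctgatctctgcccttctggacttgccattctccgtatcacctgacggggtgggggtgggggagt

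Motifs were searched on both strands of these 8 windows, of which the Apoh window is not at the start annotated in GENCODE. TATAAA was found upstream of 3 of 8 members, Apoa2, Apoa5 and Apob, and in 12.4% of all 32817 windows of that length. In Apoa5 it began 56 bases upstream of the start and in Apob 60 bases, whereas in Apoa2 it began 212 bases upstream. CACGTG, a core bound by basic helix-loop-helix factors, was found only upstream of Apoa5 among the 8, 107 bases from the start, and in 6.02% of all windows. TGACNNNGC, the core of the antioxidant response element that NRF2 binds, was found in 0 of the 8 windows and in 10.2% of all. CAAAGTCCA, an HNF4 site, was found in 0 of 8 and in 0.384% of all, and the longer direct repeat with 1 base between its arms in 0 of 8 and in 0.0335% of all. These counts describe letters in short windows and not binding.

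The library labelled compound mutant replicate 1 held 28799 reads of Xist and 2 reads of Y-linked genes, against 22 to 50 and 1830 to 3066 in the other 15 libraries, so it went against its label of male. It was the lowest of all 16 libraries for 7 of the 10 members, and the median of its differences from the other 3 livers of its genotype was -0.67 over the members and -0.004 over all genes. Its summed normalised count of 8 hepatocyte markers was 822017, against 1534677 to 1958306 in control, 1627282 to 1876290 in Trsp knockout and 1790958 to 2103264 in KEAP1 mutant livers. The compound mutant median was 1326799, below every liver of the other genotypes, and the highest compound mutant sum was 1714962. Alb holds the largest part of this sum. It was 19.74 in compound mutant replicate 3 too, against 19.97 to 20.68 in livers of the other genotypes. Erythroid markers summed to 70992 in the library with Xist reads. They summed to 23120 to 46708 in control, 10752 to 24750 in Trsp knockout and 9304 to 18535 in KEAP1 mutant livers, so that control and KEAP1 mutant livers did not overlap. Sums of Kupffer cell, stellate cell, endothelial and cholangiocyte markers overlapped between the genotypes, while those of B cell markers, low throughout, were 117 to 228 in KEAP1 mutant and 40.3 to 88.5 in control livers. Of all cell type markers 1, among the 8 hepatocyte markers, passed an adjusted p of 0.05 by limma. This was in compound mutant against control, where 0.653% of all genes passed. Gpx1, a selenoprotein gene, was lower with the deletion of Trsp, with a log2 fold change of -2.11 in Trsp knockout against control (adjusted p = 6.23e-05, limma) and of -1.84 in compound mutant against KEAP1 mutant livers (adjusted p = 0.000434). The part of these differences in the results below was not tested. Several differences that involve compound mutant livers are also given without this library. In compound mutant against KEAP1 mutant livers it moved 3 that are not described below. Apoa1 was -0.43 with it and -0.21 without it (limma adjusted p = 0.484 and 0.787). Apoh was -0.41 and -0.22 (adjusted p = 0.389 and 0.718), and Apoe was -0.35 and -0.17 (adjusted p = 0.648 and 0.87).

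Among levels per length, Apoe, Apoa1 and Apoa2 led the family. The median over the 16 livers, as normalised count per kilobase of the principal transcript in GENCODE vM21 (an earlier release than the one the authors counted on), was 112045 for Apoe, 95791 for Apoa1 and 85924 for Apoa2. These neighbours in the order were not apart, since Apoe lay above Apoa1 in 10 of 16 livers and Apoa1 above Apoa2 in 12 of 16. Apoc1 followed at 47809, below Apoa2 in 16 of 16 livers, then Apoh at 22735. Apob, whose transcript of 13934 bases is by far the longest of the 10, had 15709 per kilobase and Apoc3 14106, with Apob above Apoc3 in 11 of 16 livers. Apoa5 had 2888, Apoc2 2624 and Apoa4 1034 per kilobase, and Apoa5 lay above Apoc2 in 10 of 16 livers. By reads instead of length, Apob held the largest share of any member, from 32.2% to 40.9% of the reads of the family and from 1.16% to 1.64% of all reads of a library.

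Together the 10 genes held a mean of 3.53% ± 0.242 (SD, n = 4) of the reads in control livers, 3.9% ± 0.458 in Trsp knockout, 4.22% ± 0.132 in KEAP1 mutant and 3.67% ± 0.568 in compound mutant livers. The 4 control shares were between 3.26% and 3.78%, and the 4 KEAP1 mutant shares between 4.1% and 4.4%, all above the controls. The Trsp knockout shares (3.36% to 4.32%) overlapped both. The compound mutant shares ran from 2.9% in the library with Xist reads to 4.11%. The difference of KEAP1 mutant and control, 0.693 percentage points, had p = 0.0286 in a two-sided exact permutation test, the smallest that 4 livers against 4 can give, and 0.114 after adjustment over the 4 pairs tested. Compound mutant was 0.548 points below KEAP1 mutant (exact permutation p = 0.0571, adjusted 0.114), and without the library with Xist reads it was 0.29 points below. Trsp knockout against control (0.376 points, exact permutation p = 0.229, adjusted 0.305) and compound mutant against Trsp knockout (-0.231 points, p = 0.543 in the exact permutation test) differed by less than the spread between livers, and the latter difference was 0.0277 points without the library with Xist reads. Erythroid marker sums, which were lower in KEAP1 mutant than in control livers, stood beside the difference of those 2 genotypes. With haemoglobin and Alb reads taken out, KEAP1 mutant livers were 0.789 points above control (exact permutation p = 0.0286, adjusted 0.0571). Compound mutant against KEAP1 mutant was then -0.72 points, with the same p and adjusted p.

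**Figure D1:**
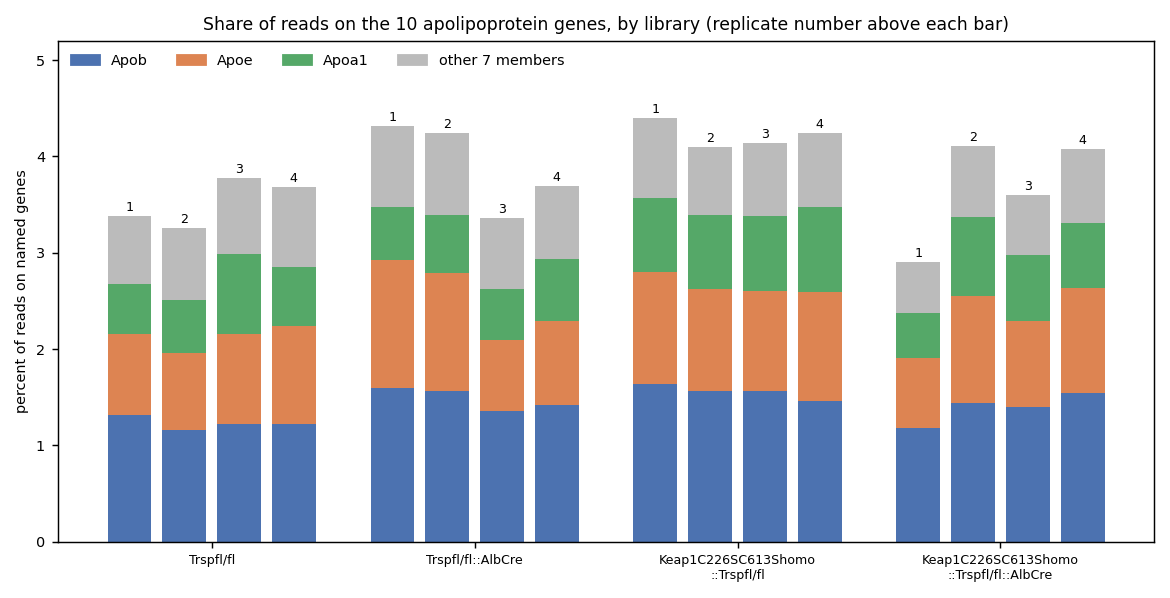
Percent of the reads on named genes (y axis, from 0) that fell on the 10 apolipoprotein genes, 1 bar for each of 16 liver libraries in 4 genotypes, split into Apob, Apoe, Apoa1 and the other 7 members, with the replicate number above the bar. The 4 KEAP1 mutant bars, 4.1% to 4.4%, stand above the 4 control bars, 3.26% to 3.78%, and the shortest bar, 2.9%, is compound mutant replicate 1.

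Apob, which encodes the structural protein of secreted very low density lipoprotein, varied little, with an SD of 0.21 over the 16 livers. The SD was 0.2 for Apoc1 and 0.89 for Apoa5. Apob is described first. It was 17.64, 17.43, 17.50 and 17.52 in control livers, 17.92, 17.82, 17.65 and 17.79 in Trsp knockout, 17.92, 17.82, 17.89 and 17.83 in KEAP1 mutant, and 17.18, 17.69, 17.54 and 17.86 in compound mutant livers. Every Trsp knockout and KEAP1 mutant value lay above every control value, while compound mutant values fell on both sides. The differences from control were small, 0.27 in Trsp knockout (SE 0.26, 95% interval -0.28 to 0.83, adjusted p = 0.735) and 0.34 in KEAP1 mutant livers (SE 0.26, interval -0.21 to 0.9, adjusted p = 0.725). In this fit the spread of a gene is drawn towards that of genes of the same level, and fits without that trend gave an unadjusted p of 0.0502 and 0.0173 for these 2 differences and adjusted values of 0.461 and 0.425.

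Of Apoa1 and Apoa2, the main proteins of high density lipoprotein, Apoa2 was lower in compound mutant livers. Apoa2 was 15.55, 15.66, 15.57 and 15.42 in control, 15.58, 15.29, 15.60 and 15.62 in Trsp knockout, 15.47, 15.20, 15.53 and 15.36 in KEAP1 mutant, and 14.42, 15.13, 14.93 and 15.16 in compound mutant livers. All 4 compound mutant values were below all 12 values of the other genotypes, the nearest being 15.16 in compound mutant and 15.20 in KEAP1 mutant livers. The share of all genes with such a separation was not computed. The difference was -0.64 against control (SE 0.18, interval -1.02 to -0.26, adjusted p = 0.118), -0.61 against Trsp knockout (SE 0.18, interval -0.99 to -0.23, adjusted p = 0.0884) and -0.48 against KEAP1 mutant livers (SE 0.18, interval -0.86 to -0.1, adjusted p = 0.24). Without the library with Xist reads the 3 differences were -0.48, -0.45 and -0.32, with adjusted p of 0.236, 0.198 and 0.469. These 3 comparisons share the compound mutant livers. Apoa1 was 16.29, 16.36, 16.94 and 16.51 in control, 16.40, 16.45, 16.30 and 16.67 in Trsp knockout, 16.82, 16.81, 16.89 and 17.10 in KEAP1 mutant, and 15.82, 16.88, 16.53 and 16.67 in compound mutant livers. The genotypes overlapped, and the KEAP1 mutant mean of 16.90 ± 0.13 (SD, n = 4) was 0.38 above the control mean (interval -0.15 to 0.91, adjusted p = 0.686).

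Apoc2, the activator of lipoprotein lipase, was the member that was higher with Trsp deletion on both KEAP1 backgrounds. It was 10.70, 10.58, 11.05 and 10.77 in control and 11.23, 11.33, 11.35 and 11.53 in Trsp knockout livers. Every knockout value was above every control value. On the KEAP1 mutant background it was 10.69, 10.32, 10.53 and 10.92 without the deletion and 10.70, 11.12, 10.89 and 11.32 with it, and there the groups overlapped. The difference was 0.59 (SE 0.15, interval 0.27 to 0.91, 1.5-fold, adjusted p = 0.12) on the wild-type and 0.39 (SE 0.15, interval 0.08 to 0.71, adjusted p = 0.254) on the mutant KEAP1 background, by limma. The difference between the 2 knockout effects was -0.19 (interval -0.64 to 0.26, adjusted p = 0.749). Scaling by library totals put both differences past an adjusted p of 0.05 (0.59 with 0.0407 and 0.52 with 0.0372), and without the library with Xist reads the second was 0.5 (adjusted p = 0.204). For the same-strand neighbours, Gm44805 was -0.41 in Trsp knockout against control (adjusted p = 0.329) and 0.01 on the mutant background (adjusted p = 0.987), and Apoc4 was -0.21 (adjusted p = 0.586) and -0.24 (adjusted p = 0.441).

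Its counterpart Apoc3, which restrains lipoprotein lipase, was 12.87, 13.13, 12.53 and 13.42 in control, 12.85, 12.60, 12.92 and 13.18 in Trsp knockout, 12.62, 12.57, 12.95 and 12.88 in KEAP1 mutant, and 11.91, 12.77, 11.89 and 13.17 in compound mutant livers. Replicates 1 and 3 of the compound mutant were the lowest of all 16, and the groups overlapped. The compound mutant mean was 0.56 below control (SE 0.26, adjusted p = 0.386), a difference of -0.38 without the library with Xist reads (adjusted p = 0.637). Apoa5 had one of the widest ranges, 11.32, 11.49, 13.45 and 12.78 in control, 13.55, 13.85, 12.21 and 12.87 in Trsp knockout, 13.38, 12.64, 12.38 and 13.09 in KEAP1 mutant, and 10.81, 12.93, 11.82 and 13.45 in compound mutant livers. The spread within a genotype, within a range of 3.04 over the 16 livers, covered the differences between genotypes. Its knockout effect was 0.86 on the wild-type (interval -0.33 to 2.04, adjusted p = 0.602) and -0.62 on the mutant background (interval -1.81 to 0.56, adjusted p = 0.691), and the difference of these effects, -1.48 (interval -3.16 to 0.2, adjusted p = 0.507), was the farthest from 0 among the 10 members. Without the library with Xist reads the effect on the mutant background was -0.14 (adjusted p = 0.961) and the difference of the effects -1.0 (adjusted p = 0.714).

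Apoe, the remnant ligand, was 16.97, 16.89, 17.13 and 17.27 in control, 17.65, 17.48, 16.75 and 17.08 in Trsp knockout, 17.43, 17.27, 17.30 and 17.45 in KEAP1 mutant, and 16.49, 17.31, 16.89 and 17.36 in compound mutant livers. The KEAP1 mutant values began where the control values ended and did not overlap at full precision, with a difference of 0.3 (interval -0.29 to 0.89, adjusted p = 0.788), whereas the 2 groups with Trsp deletion spanned both. Apoc1, its neighbour, was 14.70, 14.65, 14.72 and 14.78 in control, 14.90, 14.89, 14.62 and 14.62 in Trsp knockout, 14.67, 14.38, 14.57 and 14.91 in KEAP1 mutant, and 14.16, 14.60, 14.42 and 14.58 in compound mutant livers. All compound mutant values lay below those of control and of Trsp knockout livers, by 0.27 (interval -0.59 to 0.05, adjusted p = 0.481) and 0.32 (SE 0.15, adjusted p = 0.285). Without the library with Xist reads the differences were -0.18 (adjusted p = 0.704) and -0.22 (adjusted p = 0.535).

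Apoh was 14.37, 14.44, 14.67 and 14.72 in control, 14.78, 14.83, 14.29 and 14.47 in Trsp knockout, 15.05, 14.94, 14.91 and 14.88 in KEAP1 mutant, and 13.96, 14.72, 14.42 and 15.03 in compound mutant livers. The KEAP1 mutant values were all above the controls, by 0.39 on average (interval -0.03 to 0.82, adjusted p = 0.586). Apoa4 had the widest range, 9.94, 11.70, 10.05 and 13.25 in control, 10.61, 11.34, 10.74 and 10.56 in Trsp knockout, 9.70, 9.87, 11.00 and 11.28 in KEAP1 mutant, and 11.09, 11.41, 10.37 and 11.09 in compound mutant livers. One control liver, replicate 4, was far above the rest, and the knockout effect of -0.42 (interval -1.65 to 0.8) became 0.25 without it. In compound mutant replicate 1 it was inside the range of the other livers of its genotype.

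**Figure D2:**
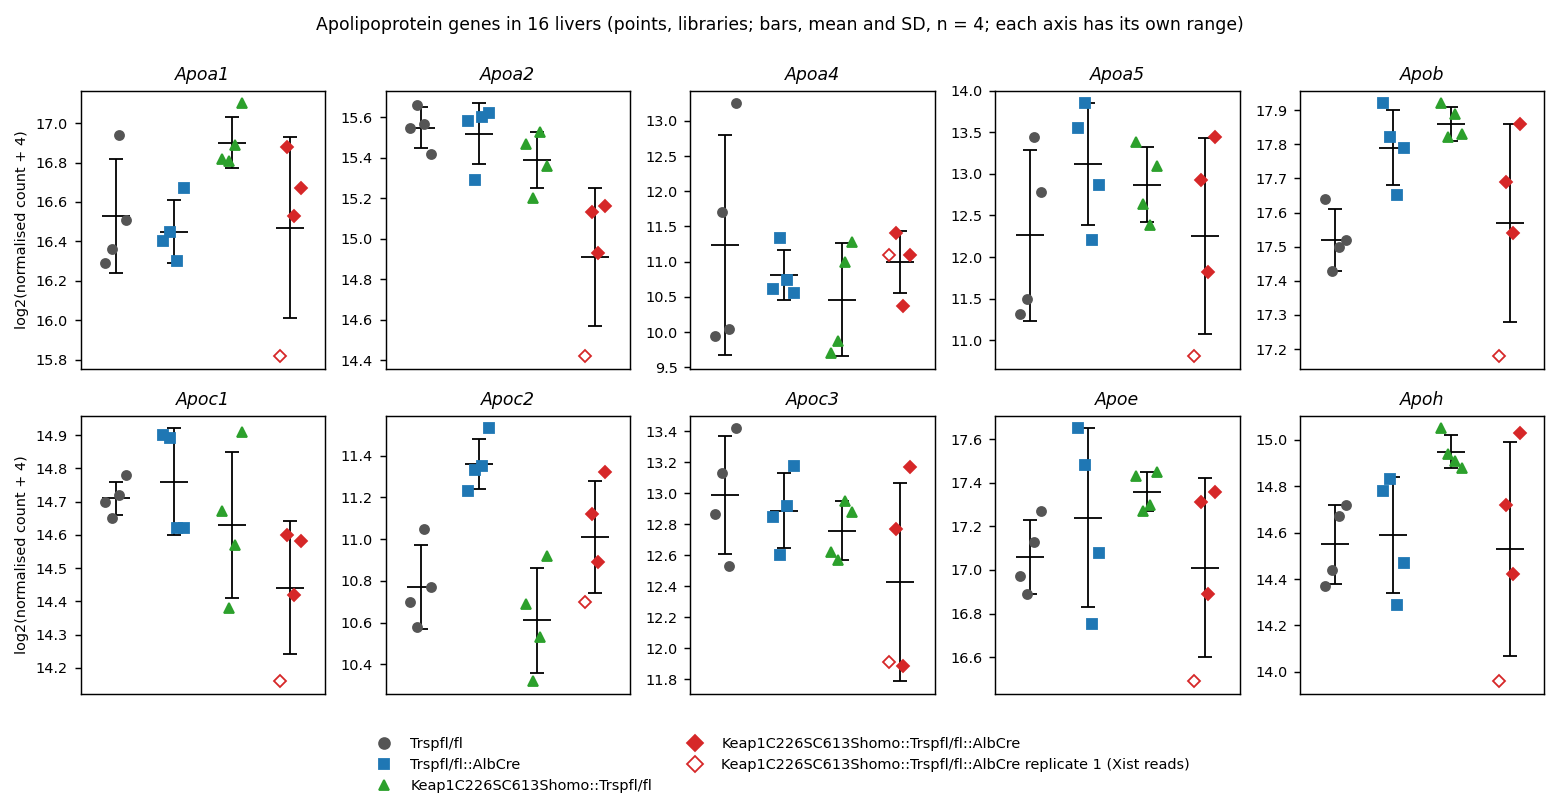
Log2 of the normalised count plus 4 (y axis, own range in each panel) for the 10 apolipoprotein genes in 4 genotypes along the x axis, with 1 point per liver library and bars for the mean and SD of 4 livers. Apoc2 in Trsp knockout livers (11.23 to 11.53) stands above the control livers (10.58 to 11.05), and the open symbol, compound mutant replicate 1, is the lowest point in 7 panels.

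Counting the family per comparison, 0 of 10 members passed an absolute log2 fold change over 1 with an adjusted p under 0.01 in Trsp knockout against control, where 0.215% of all genes passed, and 0 of 10 passed an adjusted p under 0.05 at any fold, where 0.558% did. By limma on the deposited values 1 member, Apoc2, had an unadjusted p under 0.05 (11.0% of all genes), and limma voom on the recovered reads also gave 0 calls and 1 such member. Groups did not overlap for 2 members, Apob and Apoc2, and for 6.01% of all genes. Of the 10 differences 6 were above 0, with a median of 0.04 against -0.015 over all genes.

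On the KEAP1 mutant background 0 of 10 members were called with Trsp deletion by either rule, by which 0.171% and 0.798% of all genes passed. An unadjusted p under 0.05 was reached by 2 members, Apoa2 and Apoc2, and by 13.6% of all genes, and voom gave 0 calls and 2 such members. The count moved in other fits. It was 4 members by limma without the trend (2074 of 15781 genes) and 1 under quantile normalization (2347 of 15781 genes). Groups did not overlap for 1 member, Apoa2, and for 7.69% of genes. The differences were below 0 for 8 of 10 members, with a median of -0.34 against -0.005 over all genes. Without the library with Xist reads 8 members stayed below 0 with a median of -0.16. Among the lists described below, 10 of 11 lipases and remodelling genes (median -0.39) and 16 of 20 transcription regulators (-0.31) were also below 0. Genome neighbours on chromosomes 9 and 7 were not, with medians of 0.03 and 0.18.

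KEAP1 mutant against control gave 0 of 10 calls by both rules (0.0127% and 0.0887% of all genes), 0 members at an unadjusted p under 0.05 by limma and 1 by voom (9.07% of all genes by limma). Groups did not overlap for 3 members, Apob, Apoe and Apoh, all higher in the mutant, and for 6.23% of genes in either direction. The median of the members was 0.11, with 5 above and 5 below 0. Compound mutant against Trsp knockout gave 0 of 10 by both rules (0.57% and 2.07% of all genes), 2 members at an unadjusted p under 0.05 by limma and 3 by voom (17.6% of genes by limma), and no overlap for 2, Apoa2 and Apoc1 (8.61% of genes). Compound mutant against control gave 0 of 10 (0.133% and 0.653%), 2 members at an unadjusted p under 0.05 by limma, Apoa2 and Apoc3, and 2 by voom (12.8% of genes by limma), and again no overlap for Apoa2 and Apoc1 (6.23% of genes). These comparisons share libraries with the 2 knockout comparisons and are not independent of them.

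The test of whether Trsp deletion acted differently on the 2 KEAP1 backgrounds found 0 of 10 members by either rule (0.057% and 0.0951% of all genes), with 0 members at an unadjusted p under 0.05 by limma and 1 by voom (10.8% of genes by limma). The estimate was below 0 for 9 of 10 members, all but Apoa4, with a median of -0.41 against 0.002 over all genes. Without the library with Xist reads 9 were still below 0 and the median was -0.2. The shift was not particular to the family. Of the lists of further genes described below, 16 of 20 transcription regulators (median -0.45) and 10 of 11 lipases and remodelling genes (-0.36) were below 0. So were 14 of 17 other apolipoproteins (-0.26). The chromosome 7 neighbours went the other way, with a median of 0.13. The intervals are wide: for Apoa5 it ran from -3.16 to 0.2 and for Apoc1 from -0.69 to 0.21, so that sizeable differences of the knockout effect could not be seen at this spread.

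**Figure D3:**
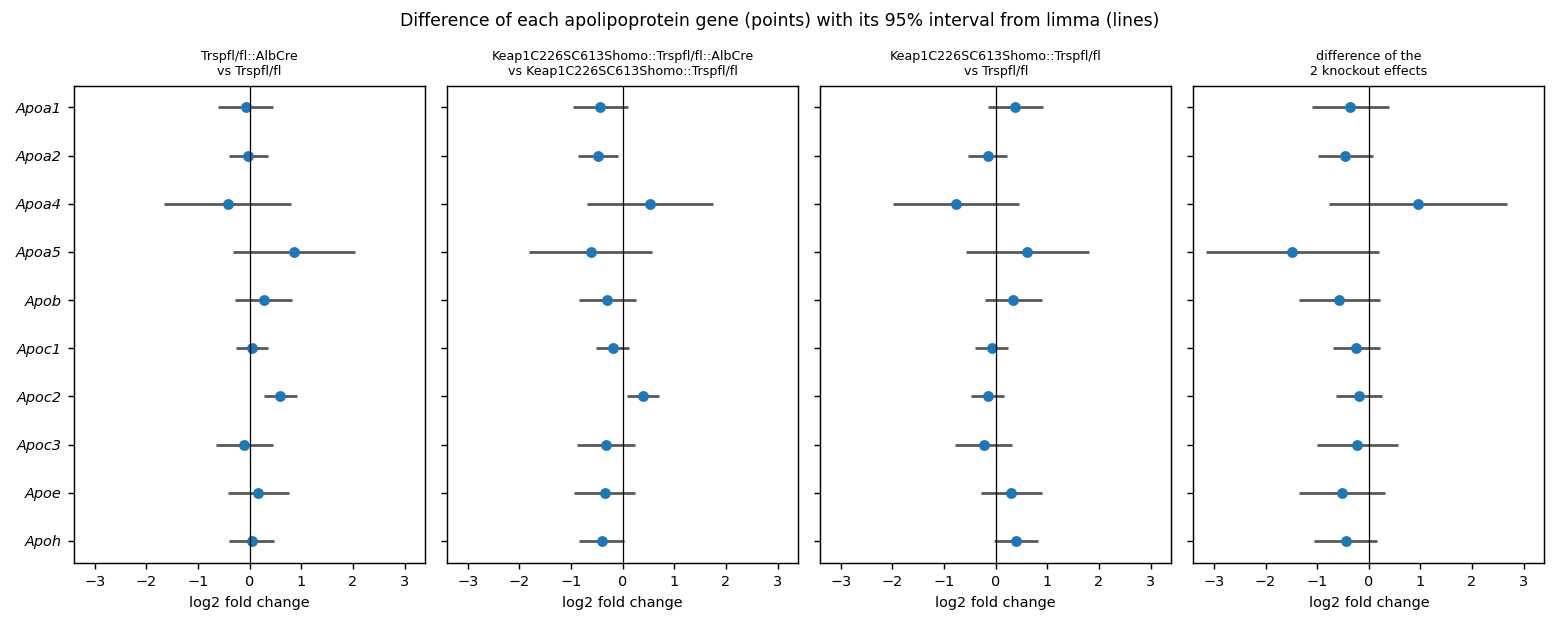
Log2 fold change (x axis) of the 10 apolipoprotein genes, points for the limma estimate and lines for its 95% interval, in 3 comparisons of genotypes and for the difference of the 2 knockout effects. In the first panel the interval of Apoc2 alone excludes 0 (0.27 to 0.91), in the second those of Apoa2 (-0.86 to -0.1) and Apoc2 (0.08 to 0.71), and in the last 9 of 10 points lie left of 0.

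Most members shared an order of the compound mutant livers. Replicates 1 and 3 were the lowest pair of the 4 livers for 9 of 10 members, an order that 26.4% of all tested genes had (this order was looked at after the values were seen). Apoe, for example, was 16.49 and 16.89 in replicates 1 and 3 and 17.31 and 17.36 in replicates 2 and 4. Alb, the albumin transcript of hepatocytes, had the same order, with 19.23 and 19.74 in replicates 1 and 3 and 20.11 and 20.17 in replicates 2 and 4. The serum amyloid A genes, apolipoproteins of high density lipoprotein that liver makes in the acute phase response, were high in the same pair of livers. Saa1 was 14.64 and 13.15 in compound mutant replicates 1 and 3, 7.73 and 6.29 in replicates 2 and 4, and between 5.38 and 8.89 in the 12 other livers. Saa2 was 14.34 and 12.12 in that pair, 5.76 and 4.91 in the other pair, and 4.14 to 7.60 in the other genotypes. Hpx, the haem scavenger hemopexin and also an acute phase protein, was 17.19 and 17.11 in the pair against 16.56 and 16.39. The fitted differences of Saa1 and Saa2 between compound mutant and KEAP1 mutant livers, 3.64 (SE 1.41, adjusted p = 0.272) and 4.25 (SE 1.58, adjusted p = 0.241), did not pass the test. The part of Alb and the acute phase genes in the members' levels was not tested.

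Members also varied together between mice in general. After the genotype mean was taken from each value, 43 of the 45 pairs of members had a Pearson's r above 0 over the 16 livers, with a median of 0.54, and 12 pairs had a permutation p under 0.05 after adjustment over the 45. These points share the library and its scaling. Pairs of other genes were not tested, so no share over all genes stands beside these counts. Without the library with Xist reads the median was 0.31 and 4 pairs passed, and under scaling by library totals the median was 0.3 and 4 pairs passed. The same 4 pairs passed in all 3 treatments: Apoe with Apoc1, Apoe with Apoh, Apoe with Apoa5, and Apoa5 with Apoh.

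Apoe and Apoc1, neighbours on chromosome 7, had r = 0.81 and Spearman's rho = 0.88 (permutation p = 4e-05 for both, adjusted p = 0.0018), 0.84 without the 2 livers farthest from the median and 0.73 without the library with Xist reads. Apoe and Apoh, on different chromosomes, had r = 0.92 and rho = 0.93 (permutation p = 0.0005 and 0.00237, adjusted p = 0.00562 and 0.0253), and 0.86 without the 2 farthest livers. Apoa5 and Apoh had r = 0.91 and rho = 0.92 (permutation p = 0.0002 and 0.00012, adjusted p = 0.0045 and 0.0027), and Apoa5 and Apoe r = 0.86 and rho = 0.84 (permutation p = 0.0005 and 0.00281, adjusted p = 0.00562 and 0.0253), with 0.88 and 0.78 without the 2 farthest livers. Of the chromosome 9 neighbours, Apoa1 and Apoa5 gave r = 0.76 and rho = 0.74 (adjusted permutation p = 0.0406 and 0.0465), which was 0.63 without the library with Xist reads (adjusted 0.187), and Apoa4 and Apoc3 gave r = 0.52 (adjusted permutation p = 0.082). The pair of Apoa1 and Apoc2, on different chromosomes, gave r = 0.77 (permutation p = 0.00182, adjusted p = 0.0154), which without the library with Xist reads was 0.72 with an adjusted p of 0.0584.

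**Figure D4:**
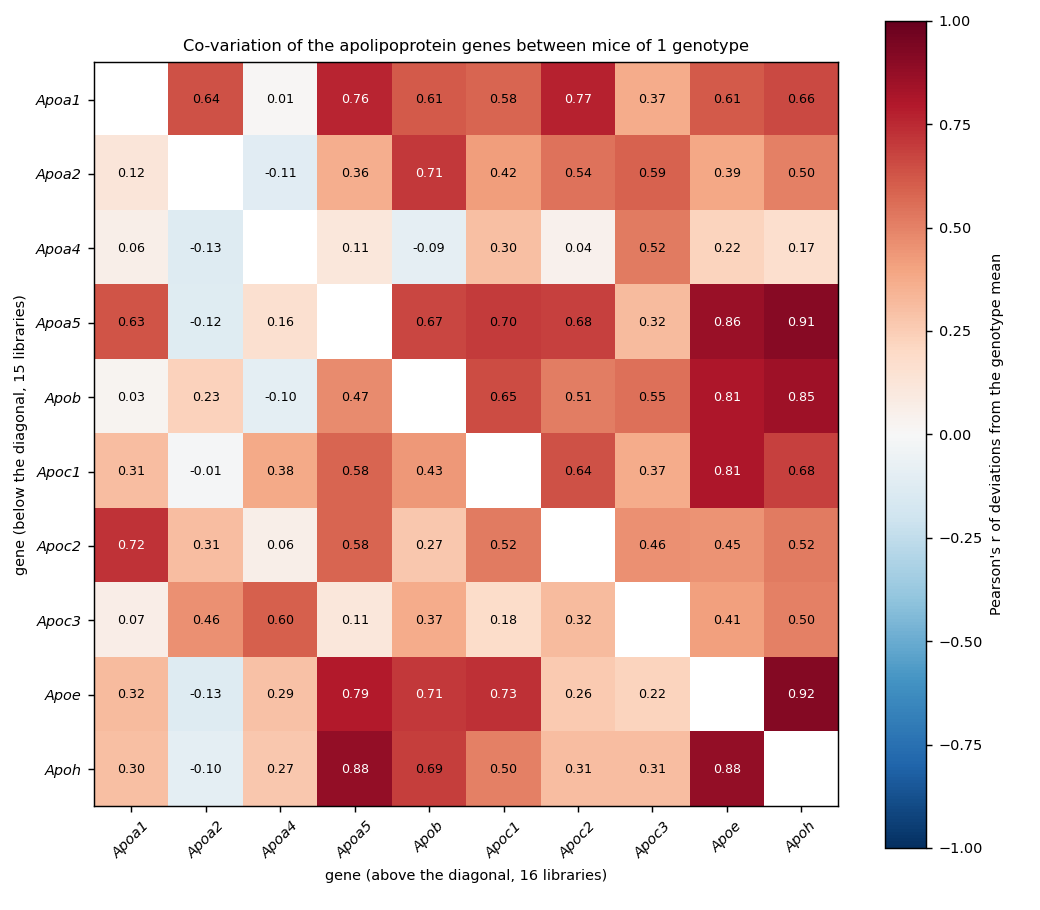
Pearson's r (colour and printed value) of the deviations from the genotype mean for each pair of the 10 apolipoprotein genes, above the diagonal over 16 liver libraries and below it over the 15 without compound mutant replicate 1. Apoe, Apoh and Apoa5 keep r of 0.79 to 0.88 below the diagonal, whereas Apoa2 has r of -0.13 to 0.46 there.

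**Figure D5:**
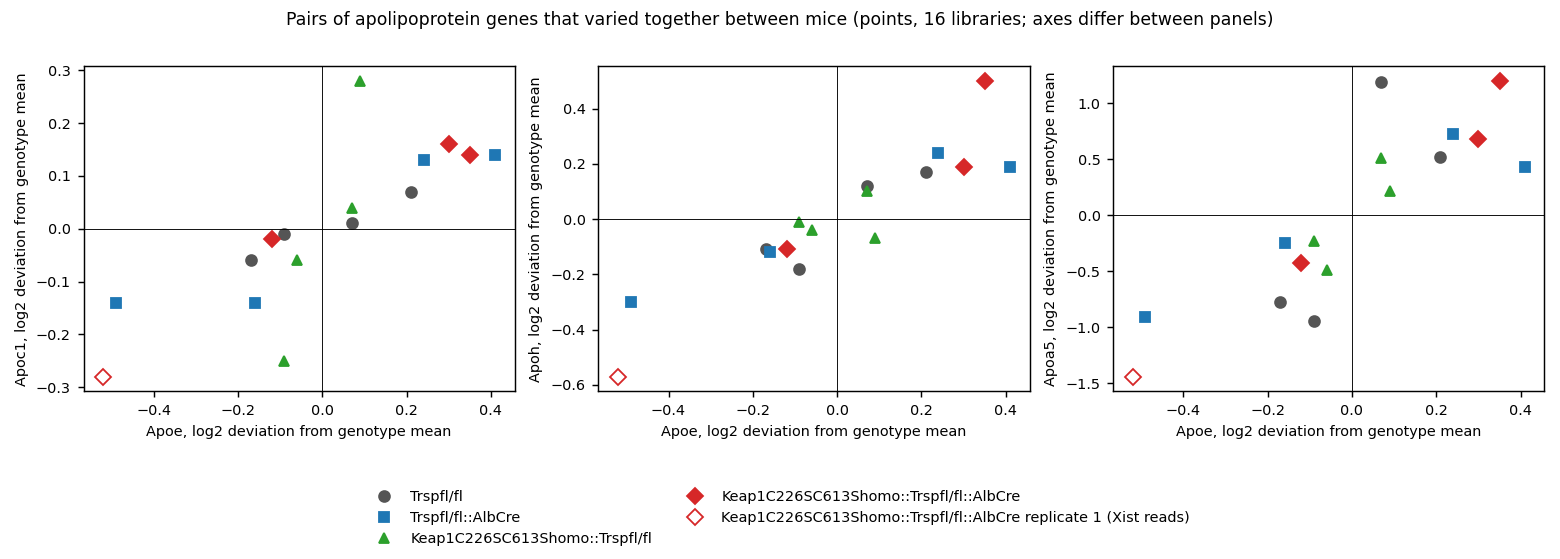
Deviation from the genotype mean, in log2 units, of Apoc1, Apoh and Apoa5 (y axes) against that of Apoe (x axes), 1 point per liver library with symbols for the 4 genotypes. Points run from lower left to upper right in each panel, with r of 0.81, 0.92 and 0.86, and the open symbol, compound mutant replicate 1, is the lowest point in each.

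The genes whose pattern over the 16 livers was nearest to that of the 3 most variable members were listed by the root mean square difference of centred log2 values. For Apoa5 they were Slc7a2 (0.36), Por (0.37) and Slc38a4 (0.4), against 0.86 for Apoa5 around its own mean. For Apoa4 they were Itgb3 (0.57), Kctd9 (0.58) and Ermap (0.58), against 0.85. For Apoc3 they were Cab39l (0.17), Trmt2b (0.19) and Cradd (0.2), against 0.41.

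Around the family, 8 lists of further genes were tested, with 104 entries (Apoc4 stands in 2 lists): other apolipoproteins and associated proteins (17), lipoprotein assembly and secretion (19), receptors and uptake (12), lipases and plasma remodelling (11), transcription regulators (20), genome neighbours on chromosomes 9 (8) and 7 (7), and other secreted hepatocyte proteins (10). By limma 0 entries passed the study's thresholds in each of the 6 comparisons, and 0 passed an adjusted p of 0.05 in Trsp knockout against control and in KEAP1 mutant against control, where 12 (11.5%) and 17 (16.3%) had an unadjusted p under 0.05, against 11.0% and 9.07% of all genes. The same count was 0 in compound mutant against Trsp knockout and for the difference of the knockout effects, with 23 (22.1%) and 19 (18.3%) at an unadjusted p under 0.05, against 17.6% and 10.8% of all genes. The medians of the lists in Trsp knockout against control were between -0.05 and 0.2. Mttp, which loads lipid onto APOB, was 12.04 ± 0.2 in Trsp knockout and 11.8 ± 0.08 in control livers (SD, n = 4).

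With Trsp deletion on the KEAP1 mutant background 0 list genes were higher and 3 were lower at an adjusted p under 0.05, 2.88% of the entries against 0.798% of all genes. Pon1, the paraoxonase carried on high density lipoprotein, was 13.99, 13.78, 13.90 and 13.52 in KEAP1 mutant and 12.38, 13.16, 12.86 and 13.14 in compound mutant livers. The groups did not overlap, nor did those of Lipg and Apol9a given next, and 7.69% of all genes were like this. The fall of -0.91 in Pon1 had an adjusted p of 0.0235 by limma, which was 0.0558 without the library with Xist reads. Lipg, endothelial lipase, was 6.83, 6.86, 7.30 and 5.96 in KEAP1 mutant and 4.77, 4.97, 5.24 and 5.13 in compound mutant livers. It fell by 1.71 on the log2 scale, with an adjusted p of 0.0493 and of 0.132 without that library. Apol9a, an apolipoprotein L family gene, was 7.95, 8.53, 8.43 and 9.25 in KEAP1 mutant and 7.20, 6.68, 7.02 and 7.52 in compound mutant livers, a difference of -1.44 (adjusted p = 0.0493, and 0.106 without that library). Of 27 alternatives, Pon1 passed an adjusted p of 0.05 in 20, Lipg in 8 and Apol9a in 7. By voom the adjusted p was 0.0305 for Pon1, 0.0786 for Lipg and 0.0702 for Apol9a. In compound mutant against control, where 1.92% of the entries and 0.653% of all genes passed, Lipg was lower (-1.84, adjusted p = 0.0388) and Hpx higher (1.15, adjusted p = 0.0374), and without the library with Xist reads these were -1.75 and 1.02, with adjusted p of 0.107 and 0.0905. There Lipg passed in 15 and Hpx in 14 of 27 alternatives.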

How the data were processed

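Liver RNA was sequenced after rRNA depletion. The authors counted reads with Salmon (GENCODE mouse version 30) and used iDEP. The deposited values are log2 of reads over a size factor plus 4, although the study's methods name TPM: reversing this gave whole reads for 100% of low values (tolerance 0.05). The 369 rows without a gene identifier (0.274% to 0.627% of reads) were left out. Genes with a normalised count of 10 in 4 libraries were tested on the deposited log2 scale, which understates changes of low genes, with limma 3.58.1 (R 4.3.3, 16 libraries in 1 fit, eBayes with trend) and Benjamini-Hochberg adjustment over 15781 genes. The study's call needs a log2 fold change beyond 1 in size and 0.01 as the adjusted limit. Co-variation used 100000 permutations within genotypes (Python 3.11.15). All members are named; list genes are named if past an adjusted p of 0.05, if among the 2 largest changes of a list, or from the list of other apolipoproteins. Mttp and Gm44805 were added after values were seen. The members and lists were chosen with earlier results of these data known. Alternatives were other constants, filters, scalings, fits (voom included), a replicate block and leaving out each library. The annotation used is on GRCm38, not the authors' build, so gene coordinates are not given.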

Additional observations from a re-analysis of the deposited data

Results flagged for a closer look

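Apoa2 in the Trsp knockout livers had 1 value apart from the other 3. Replicate 2 was 15.29 and the others lay between 15.58 and 15.62, so its gap to the nearest took 0.89 of the range, above the 95% critical value of Dixon's test for 4 samples. Of 40 groups of 4 livers examined, 1 stood apart in this way, where chance gives about 2.

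The estimated knockout effect on Apob had opposite signs on the 2 KEAP1 backgrounds, and both 95% intervals included 0 (-0.28 to 0.83 and -0.85 to 0.26). Apoa4, Apoa5, Apoc1, Apoe and Apoh had estimates of opposite sign as well. For Apob all 4 Trsp knockout livers were above the control mean (0.27 on average). Compound mutant against KEAP1 mutant livers was -0.3 on average, but compound mutant replicate 4 (17.86) was level with the KEAP1 mutant mean (17.86) as rounded. The difference of the effects was -0.57 (SE 0.37, 95% interval -1.36 to 0.22, limma adjusted p = 0.579) and did not pass the test. For this difference, limma without trend gave an unadjusted p of 0.00687 and voom 0.015, with adjusted values of 0.355 and 0.401. Without compound mutant replicate 1 the difference of the effects was -0.44, with an adjusted p of 0.712.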

How the results depend on the processing

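The count of called members was 0 in all 6 comparisons under each of the alternatives run. At an adjusted p under 0.05, members passed in 4 cases: Apoc2 under scaling by library totals (adjusted p = 0.0407 in Trsp knockout against control, range 0.0407 to 0.31, and 0.0372 on the KEAP1 mutant background, range 0.0372 to 0.549), Apoc2 under quantile normalization on the KEAP1 mutant background (0.0481), and Apoa2 in compound mutant against Trsp knockout without compound mutant replicate 4 (0.0325, range 0.0325 to 0.276). Under library totals the median of all genes was 0.12 in compound mutant against KEAP1 mutant, 0.128 against Trsp knockout, 0.111 against control and 0.128 for the difference of the knockout effects, in place of -0.005, 0.006, -0.009 and 0.002. In 16 of 60 member differences, all under 0.5 in size, some alternative changed the sign.

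The difference in read share of the family ran, leaving out each library in turn, from 0.236 to 0.557 percentage points in Trsp knockout against control, -0.694 to -0.29 in compound mutant against KEAP1 mutant, 0.606 to 0.778 in KEAP1 mutant against control and -0.412 to 0.0277 in compound mutant against Trsp knockout. The last reversed without compound mutant replicate 1 (0.0277, -0.231 with it). The pairs of members past the threshold of co-variation were 4 in place of 12 under library totals and 4 without the library with Xist reads, 1 library fewer.

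Replicate numbers were tested as pairs: of 24 same-numbered pairs of libraries, 4 had a correlation of deviations above 0.1 (range -0.315 to 0.31), and 0 of 16 libraries correlated best with their own number, so the numbers do not pair the livers. With the replicate block 0 members were called, and the read shares kept differences of 0.376, -0.548, 0.693 and -0.231 points with exact permutation p of 0.375, 0.25, 0.125 and 0.875. Depth did not limit these results, since the least read member had 949 reads or more in each library. The width of the intervals came from the spread between 4 livers a genotype and from the fit. The fit draws the spread of a gene towards that of genes of the same level. For Apob in KEAP1 mutant against control, the unadjusted limma p was 0.209 with this trend and 0.0173 without it.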
